A study of Homo sapiens with 2 samples.

Results

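Actin and proteins that act on it were examined in SW13, an established human cell line derived from an adrenal adenocarcinoma, by ribosome profiling and by RNA sequencing. The 10 genes were chosen by symbol: ACTB and ACTG1 for actin itself, CFL1, PFN1, TMSB4X and TMSB10 for proteins that handle actin monomers or sever filaments, MYL6, TPM1 and TPM3 for proteins of myosin and the filament, and ARPC2 for the Arp2/3 complex. Each had a single row in the deposited table, so 10 of its 23608 gene rows are described here. The ribosome profiling library holds RNA fragments that ribosomes protect from nuclease, and the RNA sequencing library holds total RNA. The cells of both libraries were transfected, with Lipofectamine, with plasmids named Add2-Mhrt779 and Add2-Hotair, for murine long non-coding RNAs, and were collected after 48 hours. There was 1 library per assay, no replicate and no untransfected control among the samples analysed here, so no value has a replicate error.

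Actin monomers join into polar filaments that shape the cell cortex, carry contractile force and drive protrusion. Profilin and the beta-thymosins bind monomers, cofilin severs and disassembles filaments, the Arp2/3 complex starts branches, and tropomyosins lie along filaments and govern access of other proteins, myosin II among them. The mRNAs of cytoplasmic actin are among the most abundant of many cultured cells and are widely used as a reference.

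Levels are as deposited, in a unit inferred from the table's layout to be FPKM, fragments per transcript length and per mapped fragments. The read depth behind them is unknown, and the values added up to 6457389 FPKM in ribosome profiling and 1846987 FPKM in RNA sequencing over the whole table. Of all rows, 11423 were above 0 in ribosome profiling and 13990 in RNA sequencing. A gene counted as tested when its mean FPKM over both libraries was at least 10. That left 2734 genes, among them all 10 described here and 2245 protein-coding genes. Ratios are differences of log2(FPKM + 1), ribosome profiling minus RNA sequencing, with the median of tested genes, 0.39, taken off, so that 0 is the median tested gene. The 9 steroidogenic marker genes of the adrenal cortex in the fixed list, STAR, CYP11A1 and NR5A1 among them, were all listed at 0 in both libraries. Vimentin, the intermediate filament that some SW13 cells lack, had 707 FPKM in ribosome profiling and 490 FPKM in RNA sequencing. The chromatin remodelling ATPases SMARCA4 and SMARCA2, which SW13 cells are known to lack, had 0.68 and 1.75 FPKM in ribosome profiling, against 3.99 and 1.72 FPKM in RNA sequencing.

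The 2 cytoplasmic actins differ by few residues, mostly at their start, and their coding sequences resemble each other closely. Of 1128 coding bases, 99 differed between ACTB and ACTG1, an identity of 91.2%, and 94 of those lay at the third base of a codon. The first 60 coding bases, from the start codon on, are shown because they hold the codons of the differing first residues. Capitals mark the 10 bases there that differ between the genes.
ACTB: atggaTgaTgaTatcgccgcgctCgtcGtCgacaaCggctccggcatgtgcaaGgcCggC
ACTG1: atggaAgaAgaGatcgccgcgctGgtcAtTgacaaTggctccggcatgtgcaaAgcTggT
The longest stretch without a difference ran for 59 bases, from coding base 832 to 890, longer than the 50 nt reads of the libraries, and reads inside it cannot be told apart between the actins.
ACTB and ACTG1: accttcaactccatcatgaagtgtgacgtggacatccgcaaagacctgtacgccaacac

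The beta-thymosins TMSB4X and TMSB10 are peptides of 44 residues, the shortest products among the 10 genes. Their whole coding sequences are shown because the gene with the highest ratio is one of them. Capitals mark the 37 of 135 bases that differ, an identity of 72.6%, and no stretch of over 10 bases was the same in both.
TMSB4X: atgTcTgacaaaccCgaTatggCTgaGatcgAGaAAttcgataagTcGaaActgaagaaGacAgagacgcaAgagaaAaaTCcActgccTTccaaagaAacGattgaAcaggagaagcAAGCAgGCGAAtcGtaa
TMSB10: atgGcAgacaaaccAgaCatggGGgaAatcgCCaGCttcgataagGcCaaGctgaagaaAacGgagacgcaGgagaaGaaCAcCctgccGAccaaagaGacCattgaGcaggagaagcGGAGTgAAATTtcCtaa
These sequences are from GENCODE 29, written 5′ to 3′ on the coding strand.

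Both actins were among the most abundant mRNAs of either library and lay close to the median gene in ratio. ACTB, on chromosome 7 from 5566779 to 5570232 in hg19, had 885 FPKM in ribosome profiling and 759 FPKM in RNA sequencing, a ratio of -0.17. ACTG1, on chromosome 17 from 79476997 to 79479892, had 992 and 801 FPKM in ribosome profiling and RNA sequencing, a ratio of -0.079. ACTG1 was the higher actin in both libraries, and the level of ACTB over that of ACTG1 was 0.892 in ribosome profiling and 0.948 in RNA sequencing. Among tested protein-coding genes, ACTB took rank 20 in ribosome profiling and rank 17 in RNA sequencing, and ACTG1 took ranks 18 and 14. Both ratios turned positive with filters of 1 FPKM or none and without centring, at up to 0.51 for ACTB and 0.59 for ACTG1.

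The beta-thymosins, which hold actin monomers in reserve, and MYL6 were the 3 genes of the 10 with a ratio above 0. TMSB10, on chromosome 2 from 85132763 to 85133799, had 1218 FPKM in ribosome profiling and 743 FPKM in RNA sequencing, a ratio of 0.32. It was the highest of the 10 genes in ribosome profiling and the third highest in RNA sequencing. TMSB4X, on chromosome X from 12993226 to 12995346, had 269 FPKM in ribosome profiling and 101.2 FPKM in RNA sequencing, a ratio of 1.01. It lay 2.02-fold above the median gene, the single one of the 10 at least 2-fold above it, where 13.1% of all tested genes lay. It was barely past that limit, at 0.97 when centred on tested protein-coding genes and at 0.84 with a filter of 30 FPKM. Its rank among tested protein-coding genes was 123 in ribosome profiling and 190 in RNA sequencing. TMSB10 exceeded TMSB4X in FPKM in both libraries. The level of TMSB4X over that of TMSB10 was 0.221 in ribosome profiling and 0.136 in RNA sequencing. These levels are scaled by transcript length and are not levels per coding base. Coding sequence made up 7.93% of the 1702 bases of the TMSB4X transcript. For TMSB10 it made up 27.2% of 496 bases. The part of this difference in the level of TMSB4X over that of TMSB10 was not tested.

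Profilin and cofilin lay at or below the median gene. PFN1, profilin, which feeds monomers to growing filament ends, had 127 FPKM in ribosome profiling and 174 FPKM in RNA sequencing, 1.79-fold below the median gene. This was the lowest ratio of the 10, at -0.84. The gene is on chromosome 17 from 4848945 to 4852381. CFL1, cofilin, on chromosome 11 from 65622285 to 65625804, had 185 FPKM in ribosome profiling and 186 FPKM in RNA sequencing, a ratio of -0.39. The level of CFL1 over that of PFN1 was 1.46 in ribosome profiling and 1.07 in RNA sequencing. In rank, PFN1 stood at 249 in ribosome profiling and 125 in RNA sequencing, and CFL1 at 167 and 114.

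**Figure D1:**
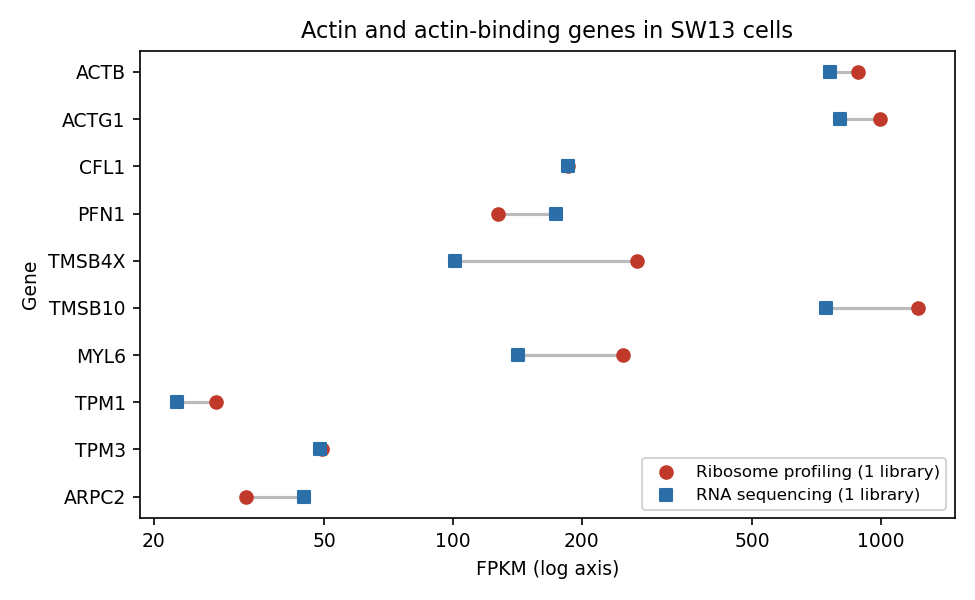
FPKM of the 10 genes on a log axis, with red circles for ribosome profiling and blue squares for RNA sequencing, 1 library each. TMSB4X has the widest gap, 269 FPKM in ribosome profiling against 101.2 FPKM in RNA sequencing, and the points of CFL1 and TPM3 nearly coincide.

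MYL6 and the tropomyosins belong to contractile filaments. MYL6, the essential light chain of non-muscle myosin II, on chromosome 12 from 56552045 to 56555366, had 250.2 FPKM in ribosome profiling and 142 FPKM in RNA sequencing, 1.34-fold above the median gene. TPM3, on chromosome 1 from 154127780 to 154164609, had 49.4 FPKM in ribosome profiling and 48.96 FPKM in RNA sequencing, a ratio of -0.38. TPM1, on chromosome 15 from 63334838 to 63364113, had 28 FPKM in ribosome profiling and 22.7 FPKM in RNA sequencing, a ratio of -0.099. It was the lowest of the 10 genes in both libraries, and the level of TPM1 over that of TPM3 was 0.566 in ribosome profiling and 0.464 in RNA sequencing. ARPC2, a structural core subunit of the Arp2/3 complex, on chromosome 2 from 219081874 to 219119071, had 32.9 FPKM in ribosome profiling and 44.98 FPKM in RNA sequencing. With a ratio of -0.83 it lay 1.77-fold below the median gene, close to PFN1.

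As a list, the 10 genes sat near the middle of the genes tested at a mean of at least 10 FPKM. Their median ratio was -0.13, against 0 for all tested genes by construction and 0.040 for tested protein-coding genes. Of the 10, 1 lay at least 2-fold above the median gene, where 13.1% of all tested genes and 10.0% of tested protein-coding genes did. None lay at least 2-fold below, where 19.7% of all tested genes and 14.4% of tested protein-coding genes did. The ratios ran from -0.84 for PFN1 to 1.01 for TMSB4X, with 3 above 0 and 7 below. These signs rest on where the centre lies: 8 were above 0 and 2 below with a filter of 1 FPKM and with none, and 7 above and 3 below without centring. ACTB, ACTG1, CFL1, TPM1 and TPM3 each changed sign under at least 1 of these settings, and the other 5 kept theirs under every alternative run. The sign of the list's median followed the scaling too: it was 0.41 with a filter of 1 FPKM, 0.54 with no filter and 0.26 without centring, since these moved the centre of all genes.

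**Figure D2:**
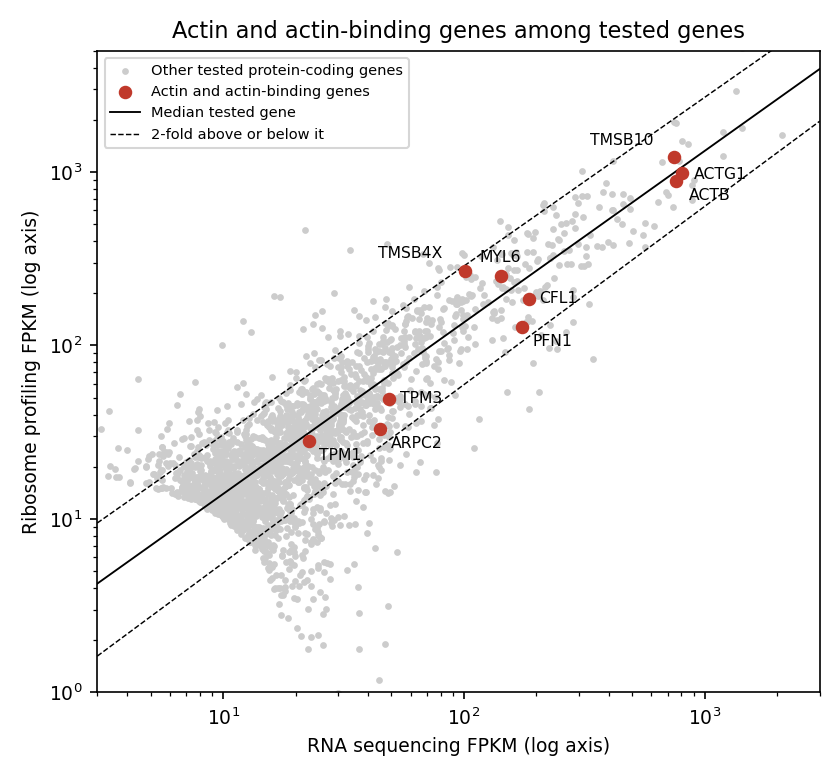
RNA sequencing FPKM against ribosome profiling FPKM on log axes, with the 10 genes in red and other tested protein-coding genes in grey; genes at 0 in a library or outside the axes are not drawn. The solid line is the median tested gene, the dashed lines are 2-fold above and below it, and TMSB4X lies on the upper dashed line.

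The share of summed FPKM that the 10 genes took in each library depended on the rows they were set against. FPKM is scaled by transcript length, so these are not shares of fragments. The FPKM of the 10 genes summed to 4037 in ribosome profiling and 3023 in RNA sequencing. That is 2.14% of the sum over protein-coding rows in ribosome profiling and 2.09% in RNA sequencing. Over tested protein-coding rows alone the order turned, at 2.49% in ribosome profiling and 2.71% in RNA sequencing. Of the sum over all rows of the table, a denominator added after seeing the data, the 10 genes held 0.0625% in ribosome profiling and 0.164% in RNA sequencing, where protein-coding rows as a whole held 2.92% and 7.84%. Within the 10, both actins together held 1877 FPKM in ribosome profiling and 1560 FPKM in RNA sequencing, and both thymosins held 1487 and 844 FPKM. TMSB10 alone made up 30.2% of the sum of the 10 in ribosome profiling and 24.6% in RNA sequencing, whereas PFN1 made up 3.15% and 5.77%.

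The error of these ratios is wide. TMSB4X had a log2 ratio of 1.41 and q = 0.461 in the authors' deposited table, and dividing the ratio by the deposited statistic gave a standard error of 0.90. For MYL6 the authors' deposited table gave 0.82 with a standard error of 0.67, and for PFN1 -0.46 with one of 1.01. Of the 10 genes, 0 were called in the authors' deposited table, with q-values from 0.461 to 0.9996, and 0 had an unadjusted p under 0.05 there, against 1.30% called and 14.2% with an unadjusted p under 0.05 among the 4849 rows with the status OK. The standard errors of the 10 had a median of 1.01, wider than the SD of 0.58 between the 10 ratios in the authors' deposited table. None of the 45 differences between members had a 95% interval that left out 0, taking the errors in the authors' deposited table as independent. For TMSB4X minus TMSB10 that interval, from the authors' deposited table, ran from -2.05 to 3.45, for ACTB minus ACTG1 from -3.89 to 3.71, for TPM1 minus TPM3 from -1.97 to 2.54, and for CFL1 minus PFN1 from -2.38 to 3.28. For TMSB4X minus PFN1, the widest difference, it ran from -0.79 to 4.53. These errors are those of the authors' model, hold no spread between cultures, and leave room for differences of several-fold in either direction for most pairs.

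**Figure D3:**
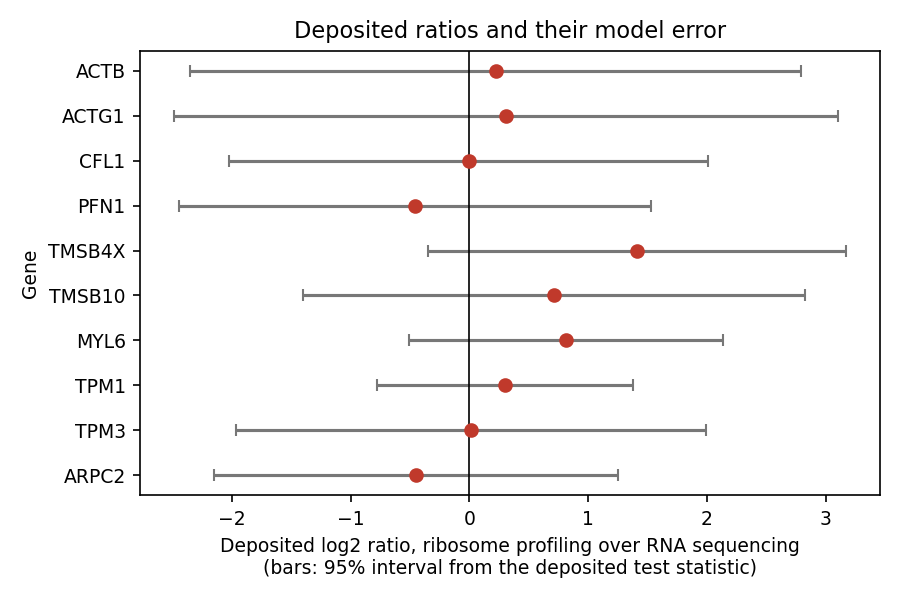
Deposited log2 ratios (ribosome profiling over RNA sequencing) of the 10 genes, with bars for the 95% interval from the deposited test statistic. All 10 bars cross 0, and that of TMSB4X runs from -0.35 to 3.17.

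Genes of this group have many processed copies in the genome, and the coding sequences were searched for windows that a short read could not place. Of the 106 windows of 30 bases, a length near that of a ribosome footprint, in the TMSB4X coding sequence, all 106 were also found in a pseudogene transcript of GENCODE 29, and so were all 86 windows of 50 bases, the read length. For ACTB the share was 42.5% of 30-base windows, for PFN1 38.8%, for TPM3 31.4%, for TMSB10 28.3%, for ACTG1 28.2%, for CFL1 23.5% and for MYL6 19.9%. TPM1 and ARPC2 had none. With 50-base windows PFN1 kept 29.4%, ACTB 13.3% and CFL1 1.55%. The gene past 2-fold is thus the one whose coding sequence has no window of its own by this measure, and the part of read placement in its ratio was not tested. Only coding sequence was searched, which made up 7.93% of the 1702 bases of the TMSB4X transcript, the lowest share of the 10. Spearman's rank correlation of ratio with that share was 0.076 across 2214 tested protein-coding genes and -0.22 over the 10 genes. Between the actins, 7.73% of 30-base windows and 0.927% of 50-base windows of ACTB were found in ACTG1. TMSB4X shared no 30-base window with TMSB10, nor TPM1 with TPM3. No other row of the deposited table overlapped the locus of any of the 10 genes.

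**Figure D4:**
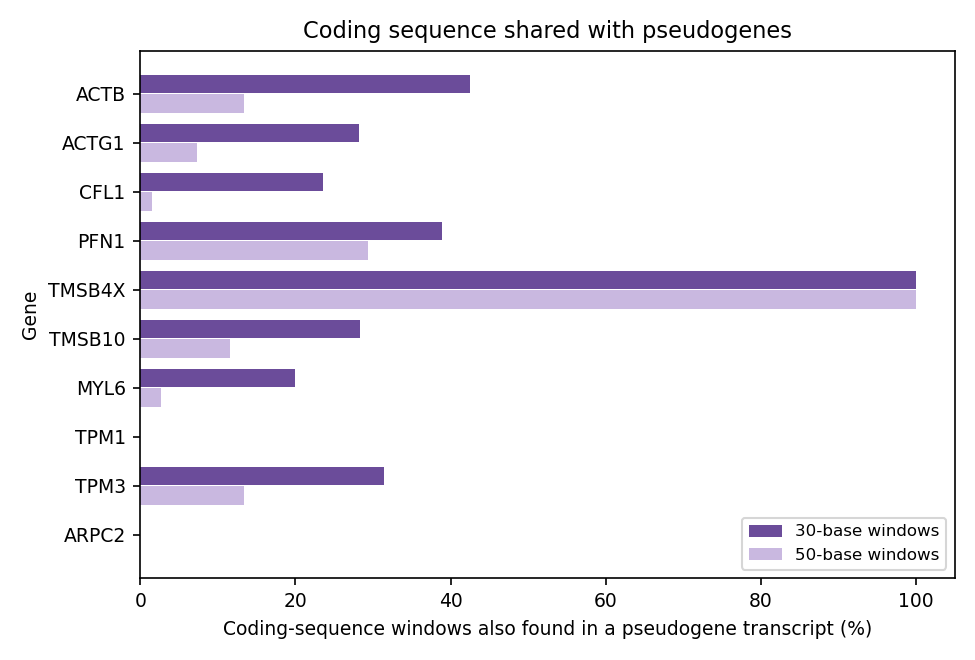
Percent of the windows in each coding sequence that were also found, letter for letter, in a pseudogene transcript, for 30-base windows (dark) and 50-base windows (light). TMSB4X reaches 100% with both lengths, and TPM1 and ARPC2 are at 0.

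With the filter of 10 FPKM, protein length did not order the ratios across tested protein-coding genes. Across 2214 tested protein-coding genes with a coding length, Spearman's rank correlation of ratio with residues was -0.0080, a description across genes of these libraries. The 107 genes of up to 100 residues, where both thymosins belong, had a median ratio of 0.14, with 15.0% past 2-fold upward and 10.3% past 2-fold downward. The 702 genes of over 200 and up to 400 residues, where the actins, tropomyosins and ARPC2 belong, had a median of -0.0092. Spearman's rank correlation of ratio with residues over the 10 genes was -0.34. The 5 proteins of up to 200 residues had a median of 0.32 and the 5 longer ones -0.17. The short ones held both the highest ratio of the 10, 1.01 for TMSB4X, and the lowest, -0.84 for PFN1. Across tested protein-coding genes, the correlation of ratio with residues was -0.069 with a filter of 1 FPKM and 0.078 with a filter of 30 FPKM. Medians for up to 100 and over 400 residues were 0.24 and -0.024 with the filter of 1 FPKM. With the filter of 30 FPKM they were 0.052 and 0.23.

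The rest of the actin cytoskeleton was covered by 8 lists of other genes by role. Of 85 genes, 49 were tested. Their median ratio was -0.063, and 8 lay 2-fold or more below the median gene and 0 as far above, where 19.7% of all tested genes lay as far below and 13.1% as far above (14.4% and 10.0% of tested protein-coding genes). None of the 85 was called in the authors' deposited table, where 3 of the 65 with the status OK had an unadjusted p under 0.05, against 14.2% of all rows with that status. The count below 2-fold was 3 with a filter of 30 FPKM and 4 without centring. The count above was 12 with a filter of 1 FPKM, 16 with none and 3 without centring.

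Other actins were low beside ACTB and ACTG1. Of the 5 isoforms, ACTA1, the actin of skeletal muscle, was the single one tested, at 46.3 FPKM in ribosome profiling and 62.3 FPKM in RNA sequencing, 1.75-fold below the median gene. Of its 30-base coding windows, 7.60% were also found in ACTB or ACTG1, and the part of their reads in its level was not tested. The other 4, named after their values were seen, had a mean below 10 FPKM: cardiac ACTC1 had 9.91 FPKM in ribosome profiling and 5.24 FPKM in RNA sequencing, and smooth muscle ACTG2 had 6.05 and 11.1 FPKM. ACTA2, of vascular smooth muscle, had 1.45 FPKM in ribosome profiling and 7.36 FPKM in RNA sequencing, and ACTBL2 had 0.33 FPKM and was listed at 0 in RNA sequencing.

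Other monomer-binding and severing proteins went both ways. Of 13 genes 7 were tested, with 1 at least 2-fold below, 0 above and a median of 0.21. Across all tested genes, 19.7% lay as far below and 13.1% as far above. CAP1, which helps recycle monomers from cofilin, had 62.3 FPKM in ribosome profiling and 31.7 FPKM in RNA sequencing, and the severing protein GSN had 51.97 and 26.2 FPKM, a ratio of 0.57. TWF1, twinfilin, which binds monomers and filament ends, was lowest, at 25.9 FPKM in ribosome profiling and 46.4 FPKM in RNA sequencing, 2.31-fold below the median gene.

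Genes for subunits of the Arp2/3 complex had ratios on both sides of that of ARPC2. The complex holds its subunits in equal number, but the list includes alternative forms of the same subunit, such as ARPC1A and ARPC1B. Of the 9 other genes listed 7 were tested, with 3 at least 2-fold below, 0 above and a median of -0.12. Across all tested genes, 19.7% lay as far below and 13.1% as far above. ARPC1A had 11.7 FPKM in ribosome profiling and 37.9 FPKM in RNA sequencing, 4-fold below the median gene. Its alternative form ARPC1B had 34.5 FPKM in ribosome profiling and 56.8 FPKM in RNA sequencing, 2.13-fold below. The row that joins ARPC4 with its read-through transcript, named after its value was seen, had 16.5 FPKM in ribosome profiling and 34.5 FPKM in RNA sequencing, 2.65-fold below. ARPC3 was highest, at 83.7 FPKM in ribosome profiling and 49.6 FPKM in RNA sequencing, a ratio of 0.35. In the authors' deposited table the intervals of ARPC1A, from -3.47 to 0.084, and of ARPC3, from -0.92 to 2.43, overlapped and both held 0.

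Among filament-lining and calponin-family proteins 5 of 11 were tested, with 2 at least 2-fold below, 0 above and a median of -0.29. The shares of all tested genes were 19.7% as far below and 13.1% as far above. The tropomyosin TPM2 had 97.8 FPKM in ribosome profiling and 52.6 FPKM in RNA sequencing, a ratio of 0.49, and exceeded TPM1 and TPM3 in both libraries. TPM4, another tropomyosin, named after its value was seen, went the other way. It had 22.0 FPKM in ribosome profiling and 41.8 FPKM in RNA sequencing, 2.44-fold below the median gene. TAGLN2, a calponin relative, had 46.3 FPKM in ribosome profiling and 43.1 FPKM in RNA sequencing. CNN2, a calponin, was lowest, at 7.69 FPKM in ribosome profiling and 23.6 FPKM in RNA sequencing, 3.71-fold below the median gene.

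The other chains of non-muscle myosin II had 6 of 7 genes tested, 1 at least 2-fold below, 0 above and a median of 0.094. Across all tested genes, 19.7% lay as far below and 13.1% as far above. The regulatory light chains MYL12B and MYL12A had 218 and 174 FPKM in ribosome profiling, against 146 and 93.9 FPKM in RNA sequencing, at ratios of 0.19 and 0.50. MYL6B, a relative of MYL6 that lies next to it on chromosome 12, had 9.17 FPKM in ribosome profiling and 33.3 FPKM in RNA sequencing, 4.42-fold below the median gene. The level of MYL6 over that of MYL6B was 27.3 in ribosome profiling and 4.26 in RNA sequencing. For this pair, picked after its values were seen, the log2 ratios in the authors' deposited table differed by 2.68, with a joint error of 1.23, and the 95% interval reached from 0.26 to 5.09. They shared 5.15% of the 30-base windows of MYL6.

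Barbed-end capping proteins had 3 of 4 tested, none past 2-fold and a median of -0.16. The ratio was 0.56 for CAPZB, -0.16 for CAPZA1 and -0.21 for CAPZA2. That of CAPZB was 1.11 with a filter of 1 FPKM and 1.24 with none. CAPZB had 49.3 FPKM in ribosome profiling and 25 FPKM in RNA sequencing, and its partners CAPZA1 and CAPZA2 had 24.5 and 15.3 FPKM in ribosome profiling, against 20.8 and 13.4 FPKM in RNA sequencing. Cross-linkers and linkers to membranes and adhesions had 14 of 16 tested, 1 at least 2-fold below, 0 above and a median of -0.23. For both lists, the shares of all tested genes were 19.7% as far below and 13.1% as far above. The cross-linker ACTN4 had 128 FPKM in ribosome profiling and 78.5 FPKM in RNA sequencing, and the membrane linker EZR had 111 and 54.7 FPKM. RDX, a relative of EZR, was highest, at 25.5 FPKM in ribosome profiling and 10.5 FPKM in RNA sequencing, a ratio of 0.82. LASP1, of focal adhesions, was lowest, at 7.09 FPKM in ribosome profiling and 14.3 FPKM in RNA sequencing.

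**Figure D5:**
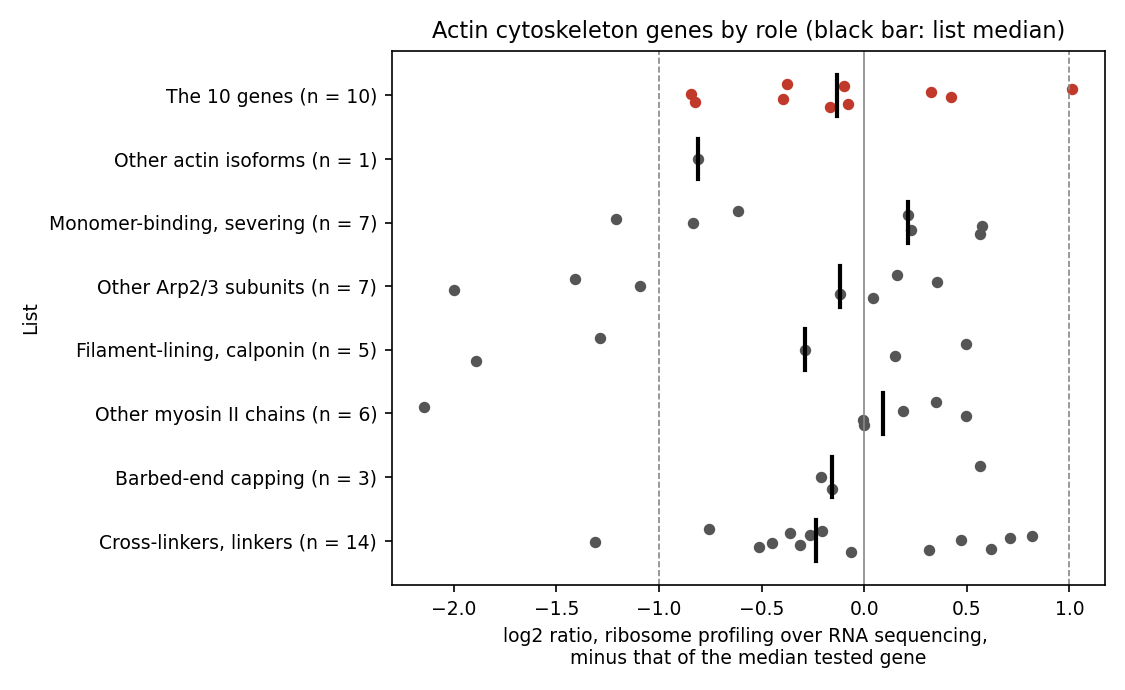
Centred log2 ratios (ribosome profiling over RNA sequencing, 0 being the median tested gene) of the 10 genes (red) and the tested genes of 7 of the lists (grey), with black bars at list medians and dashed lines at 2-fold. No list median passes 2-fold, and the lowest points are MYL6B at -2.14 and ARPC1A at -2.0.

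The genes with a pair of levels most like that of ACTB were sought outside all lists, by Euclidean distance of log2(FPKM + 1) over the 2 libraries. The histone gene HIST1H2BD was nearest, at a distance of 0.23, with 843 FPKM in ribosome profiling and 886 FPKM in RNA sequencing. The globin gene HBB followed at 0.25, with 766 and 691 FPKM in ribosome profiling and RNA sequencing, and then GAGE10 at 0.25, with 894 and 905 FPKM. Shared windows were not searched for HIST1H2BD, HBB or GAGE10, and the part of read placement in their levels was not tested. The mRNA of GAPDH, often used beside ACTB as a reference, had 1708 FPKM in ribosome profiling and 1192 FPKM in RNA sequencing, a ratio of 0.13.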

How the data were processed

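SW13 cells were measured by ribosome profiling and RNA sequencing, 1 library each, grouped by the labelled procedure. The authors deposited a value per gene and library, with their log2 ratio, test statistic, p-value and q-value in the same table. Its unit is not stated there and was taken as FPKM from the layout. Per the submitters' processing notes, hg19 and mm10 were the builds, and bedtools 2.16.1, SAMtools 0.1.18, Bowtie2 2.0.0.6 and TopHat2 2.0.8b were among the tools, whose roles are not stated. Which program wrote the table, how it treated reads with several places and how it scaled the libraries is not given in the sources used here. The deposited log2 ratio equalled that of both FPKM values within 0.001 in 100% of 10887 rows above 0 in both. The test statistic, another deposited value, gave the deposited p-value within 0.001 in 100% of 4542 rows. Loci were copied from that table and are counted from 1.

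From these values the centred log2 ratio was computed in Python 3.11.15 with pandas 2.3.3, with a pseudocount of 1 FPKM, a mean of at least 10 FPKM and status other than FAIL or HIDATA. The pseudocount understates ratios of low genes. With 1 library per group no test was run. The ratio and its 2-fold count were tested on simulated data with known folds, built with the same formula. That checks the calculation and says nothing of the error of these libraries. Standard errors come from the deposited statistic. Gene class came from RefSeq names, matched in 97.9% of tested rows. Coding lengths and sequences came from GENCODE 29, in place of a protein table, and 98.6% of tested protein-coding rows had one. The shared windows were added after seeing the data. Named genes are the 10 members, in each list the 2 with the largest mean and the extremes of the ratio, the 3 genes nearest ACTB, GAPDH, VIM, SMARCA4, SMARCA2 and copies of members. Members and lists were chosen with earlier results of these data known.
One of the 8 lists enters the pooled counts and is not reported here by itself.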

Additional observations from a re-analysis of the deposited data

How the results depend on the processing

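The alternatives were pseudocounts of 0.1 and 5 FPKM, filters of 1 and 30 FPKM and none, status OK rows alone, no centring, and centring on tested protein-coding genes. The median ratio of the 10 genes, -0.13, was 0.41 with a filter of 1 FPKM, 0.54 with none, 0.26 without centring and -0.34 with a filter of 30 FPKM, and that over the 8 lists, -0.063, was 0.26, 0.38 and 0.33 under the first 3 of these. A list median has no replicate spread here, and shifts over 0.1 were counted as moves. The count of the 10 at least 2-fold above was 0 with a filter of 30 FPKM and with protein-coding centring, 2 with no filter, and 1 otherwise. The count below was 2 with a filter of 30 FPKM and 0 otherwise. TPM1, with a mean of 25.4 FPKM, does not pass the filter of 30 FPKM, so the median and counts under that filter leave it out. Over the 8 lists, the count above was 12 with a filter of 1 FPKM, 16 with none and 3 without centring, against 0, and the count below was 3 with a filter of 30 FPKM and 4 without centring, against 8. These settings change which genes enter and where the centre lies. TMSB4X ranged from 0.84 to 1.69 and PFN1 from -1.02 to -0.17, and neither changed sign, nor did TMSB10, MYL6 or ARPC2. The other 5 changed sign with filters of 1 FPKM or none or without centring, and reached 0.51 for ACTB, 0.59 for ACTG1, 0.28 for CFL1, 0.57 for TPM1 and 0.30 for TPM3. With all rows as denominator, added after seeing the data, the 10 genes' share of summed FPKM was 0.0625% in ribosome profiling and 0.164% in RNA sequencing. Paralog ratios moved by less than their errors with FPKM + 1. FPKM keeps no depth, so counting error is unknown. No paired analysis was possible because each group has 1 sample.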

Other observations

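Rows for copies of the 10 genes differed from their parents in places. ACTG1P4, a pseudogene of ACTG1, was listed at 130 FPKM in ribosome profiling and 103 FPKM in RNA sequencing, a ratio of -0.050 beside -0.079 for ACTG1, and 2.00% of the 30-base coding windows of ACTG1 were found in it. PFN1P2 had 1.52 FPKM in ribosome profiling and 7.78 FPKM in RNA sequencing, and the row that joins TPM3P9 with ZNF761 had 9.19 and 6.70 FPKM. CFL1P1 was listed at 0 in ribosome profiling and had 0.58 FPKM in RNA sequencing. POTEE and POTEF, whose proteins end in an actin-like part, were looked up after the data were seen: they had 27.5 and 15.5 FPKM in ribosome profiling, against 77.6 and 51.4 FPKM in RNA sequencing, and held 10.6% and 8.19% of the 30-base coding windows of ACTB. Whether reads of ACTB enter these rows was not tested.

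Across tested protein-coding genes, Spearman's rank correlation of ratio with the GC content of the coding sequence, a relation added after the data were seen, was -0.25 over 2214 genes. Over the 10 genes it was -0.18, with ACTG1 highest at 60.9% GC and a ratio of -0.079. TMSB4X, the gene with the highest ratio, was lowest at 43.7% GC, and ARPC2, next lowest at 47.3% GC, had a ratio of -0.83.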
